A study of Mus musculus with 16 samples.

Results

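The endoplasmic reticulum (ER) touches the plasma membrane, mitochondria and endolysosomes at membrane contact sites, and 10 genes encoding tethers, adaptors and lipid bridges of these sites are described here in RAW264.7, a macrophage-like cell line of the mouse. They are Esyt1, Esyt2, Gramd1a, Gramd1b, Vapa, Vapb, Stim1, Stim2, Vps13a and Vps13c. They were picked by gene symbol as named proteins of contact sites, by a rule that uses no measured value but that was written with earlier results of these data known, and they are 10 of the 55573 gene records in the deposited table. All 10 passed the filter on low counts that left 13107 genes for testing.

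RNA sequencing libraries came in 4 groups of 4, all from the RAW264.7(TIB-71) line. They were ORP5/8 KD, ATP11A/C KD, CDC50A KD and the Parental line, where KD stands for knockdown. KD libraries carry names that start with "sh", left unexplained by the labels. No library of the 4 groups is labelled as carrying a non-targeting construct. A difference from Parental due to the KD target therefore cannot be told apart from one due to making a KD line. Nothing in the labels says whether the 4 libraries of a group came from separate cultures, whether a KD line was 1 clone, or that any cargo or drug was given, so p-values measure only the spread between these libraries. ORP5 and ORP8 work at contact sites, where they deliver phosphatidylserine made in the ER to the plasma membrane, ATP11A is a flippase that returns phosphatidylserine to the inner leaflet, and CDC50A is the subunit that flippases need to leave the ER.

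At a contact site, a protein anchored in one membrane holds the other close enough for lipids or calcium signals to pass without vesicles. Extended synaptotagmins and GRAMD1 proteins are anchored in the ER membrane and reach the plasma membrane, where both kinds also carry lipid. VAP proteins are ER receptors for the short FFAT motif found in many lipid transfer proteins, STIM proteins sense calcium in the ER and open Orai channels, and VPS13 proteins are long bridges along which lipids move.

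Total counts per library ran from 24020891 to 41543050, and each of the 10 genes had between 616 and 20614 counts in every library. Of the 160 values of these genes none carried a decimal, as a read shared between genes would give, against 15.9% of the nonzero values in the table. Replicate libraries of a group differed by more than sampling noise in all 24 pairs (chi-square per degree of freedom 4.85 to 45.0), and the 3 pairs with library 1 of ATP11A/C KD differed most, at 20.8 to 45.0 against 4.85 to 18.4 in the others. Of 10 macrophage markers 9 exceeded 1 CPM (counts scaled to library size) in a library, with Mertk the exception, while 16 of 23 markers of other cell types, among them Epcam, Pdgfra, Cd3e, Ly6g and Flt3, were at 0 in all 16 libraries. Of the others, Zbtb46 of dendritic cells was detected in every library, at 1.52 to 2.82 CPM, and Xcr1, S100a8 and Cd79a reached at most 0.403, 0.526 and 0.124 CPM. The summed dendritic cell markers came to 1.63 to 2.50 CPM in ORP5/8 KD, 2.73 to 2.99 in ATP11A/C KD and 1.79 to 1.96 in CDC50A KD, against 1.59 to 2.41 in Parental. The summed macrophage markers reached 7510 to 7920 CPM in ORP5/8 KD, 6290 to 6660 in ATP11A/C KD and 7280 to 7580 in CDC50A KD, against 11500 to 12200 in Parental. Much of that sum was 1 gene, Lyz2, at 3920 to 4290 CPM in ORP5/8 KD, 2470 to 2780 in ATP11A/C KD and 2800 to 2940 in CDC50A KD, against 6830 to 7450 in Parental, and the other 9 markers summed to 3500 to 3660, 3690 to 4120 and 4430 to 4640 CPM in these KD groups, against 4530 to 4790 in Parental. Mitochondrial genes took 1.52 to 1.77%, 1.36 to 1.78% and 1.42 to 1.76% of counts in these KD groups, against 1.08 to 1.26% in Parental. Osbpl8 averaged 99.1 CPM in ORP5/8 KD, 127 CPM in ATP11A/C KD and 116 CPM in CDC50A KD, against 337 CPM in Parental, so its level was low in all KD groups, while Osbpl5 was at most 0.391 CPM in any library. Atp11a averaged 53.3 CPM in ORP5/8 KD, 21.4 CPM in ATP11A/C KD and 43.1 CPM in CDC50A KD, against 61.4 CPM in Parental. Tmem30a, which encodes CDC50A, averaged 130 CPM in ORP5/8 KD, 142 CPM in ATP11A/C KD and 127 CPM in CDC50A KD, against 162 CPM in Parental, and its CDC50A KD libraries (120 to 134 CPM) lay within the range of ORP5/8 KD (118 to 143 CPM). Whether the marker sums, the mitochondrial share or the low Osbpl8 of all KD groups has a part in the results on contact-site genes was not tested.

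Per kilobase of exon, taken over all annotated transcripts of a gene, Vapa and Vps13c had the highest means of the 10 genes in every group. Stim1 had the lowest, but its libraries overlapped with those of Vps13a in ATP11A/C KD and of Gramd1b in CDC50A KD. The order depends on these annotated lengths. In the Parental line the level was 37.9 ± 1.40 CPM per kb for Vapa and 27.6 ± 0.692 for Vps13c (SD, n = 4), ahead of Esyt1 at 22.5 and Vapb at 17.0. The lower tier held Esyt2 at 8.60, Gramd1a at 7.99, Stim2 at 7.66, Gramd1b at 6.68, Vps13a at 5.63 and Stim1 at 4.40 CPM per kb. Neighbours in this order did not overlap between libraries, except Esyt2 with Gramd1a and Gramd1a with Stim2. Among all tested genes, the Parental levels per kb stood between percentile 41.5 for Stim1 and percentile 88.8 for Vapa. Esyt1 was above Vapb per kb in all ORP5/8 KD and Parental libraries, but their ranges overlapped in the ATP11A/C and CDC50A KD groups.

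**Figure D1:**
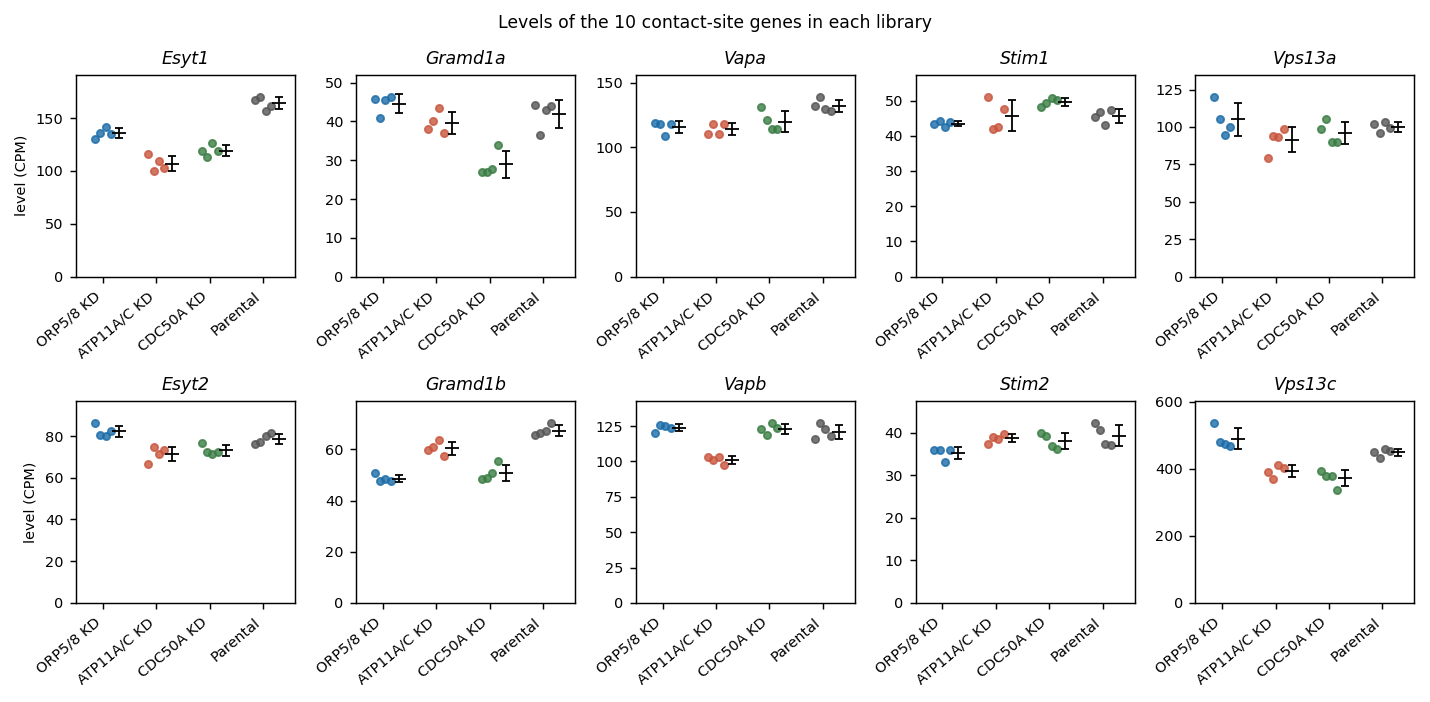
Level in CPM (vertical axis from 0) of each contact-site gene in each of the 16 libraries, by group, with the mean and SD of 4 libraries as a bar beside the points. Esyt1 and Gramd1b lie below Parental in every KD library, Gramd1a is low in CDC50A KD and Vapb is low in ATP11A/C KD.

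Against the Parental line the contact-site genes moved down or did not pass the test. Of 30 edgeR quasi-likelihood tests (10 genes in 3 KD groups) 15 were called lower and 0 higher, at an adjusted p under 0.05. Some alternatives gave 1 to 3 higher genes in ORP5/8 KD and 1 in CDC50A KD. Esyt1, Gramd1b and Vapa were lower in all 3 KD groups, Vps13c in ATP11A/C KD and CDC50A KD, Gramd1a in CDC50A KD, Esyt2 and Vapb in ATP11A/C KD, and Stim2 in ORP5/8 KD. Stim1 and Vps13a were called in no KD group. All the changes were moderate, between 65.4% and 91.0% of the Parental level.

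In ORP5/8 KD 4 of the 10 genes were lower, where 46.2% of all tested genes were called, 24.3% lower and 22.0% higher. In ATP11A/C KD 6 of 10 were lower, where 37.6% of all genes were called, 20.2% lower and 17.4% higher. In CDC50A KD 5 of 10 were lower, where 50.4% of all genes were called, 26.1% lower and 24.3% higher. The median log2 fold change of the 10 genes was -0.02 for ORP5/8 KD, -0.14 for ATP11A/C KD and -0.12 for CDC50A KD, beside 0.02, 0.01 and -0.01 over all genes. The 3 genes lower in every KD group stand beside 10.9% of all tested genes with that pattern, and the 3 comparisons share their Parental libraries. All 4 KD libraries lay below all 4 Parental libraries for 4 genes in ORP5/8 KD (23.5% of all genes), 6 genes in ATP11A/C KD (19.0%) and 4 genes in CDC50A KD (24.8%). They lay above for 1 gene in ORP5/8 KD (Vps13c, beside 20.5% of all genes), for 0 in ATP11A/C KD (14.3%) and for 1 in CDC50A KD (Stim1, beside 23.2%).

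The count of 0 higher calls depended on the scaling of the libraries, the low-count filter, the test and the libraries fitted. Vps13c alone was higher in ORP5/8 KD with either other filter, in DESeq2 and in a fit of these 8 libraries. Stim1 was higher in CDC50A KD in its fit of 8 libraries and without library 2 of ATP11A/C KD. With upper-quartile scaling 3 genes passed as higher in ORP5/8 KD, namely Esyt2 at a log2 fold change of 0.14 (edgeR adjusted p = 0.0134), Vapb at 0.11 (0.0251) and Vps13c at 0.20 (0.00253). Of the genes called over the whole table in this comparison, 63.3% were higher with that scaling, against 47.5% with the TMM scaling used throughout. This share of called genes was 60.5% against 47.2% between ORP5/8 KD and ATP11A/C KD, and 60.7% against 48.4% between ORP5/8 KD and CDC50A KD. At an unadjusted p under 0.05 edgeR gave 1 higher gene for ORP5/8 KD, 0 for ATP11A/C KD and 1 for CDC50A KD, and DESeq2 called 1, 0 and 0. In bulk RNA a lower level in every cell and a smaller share of expressing cells cannot be told apart.

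**Figure D2:**
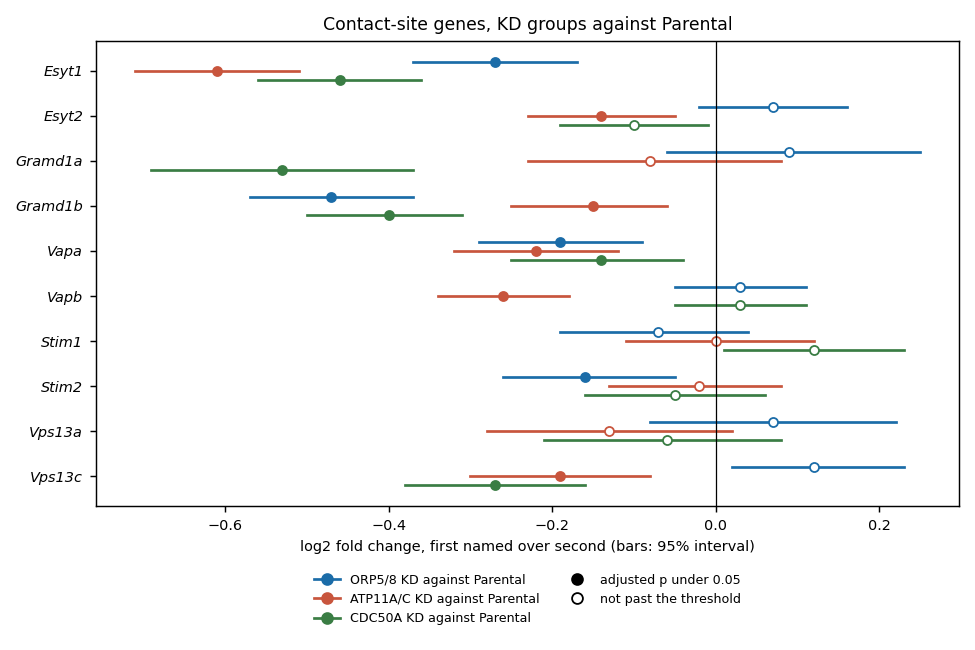
Log2 fold change (horizontal axis) of each contact-site gene in ORP5/8, ATP11A/C and CDC50A KD over Parental, with 95% intervals and filled points where the edgeR adjusted p is under 0.05. With the fit shown, all 15 filled points lie left of 0. Some alternatives gave 1 to 3 called genes right of 0 in ORP5/8 KD and 1 in CDC50A KD. The filled point farthest from 0 is Esyt1 in ATP11A/C KD at -0.61.

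Esyt1 encodes extended synaptotagmin 1, an ER protein whose C2 domains bind the plasma membrane when calcium rises and whose SMP domain carries lipid. The gene (ENSMUSG00000025366.8) lies at chr10:128509965-128525871 on the minus strand of GRCm38. Its level was 130, 136, 142 and 135 CPM in the ORP5/8 KD libraries, 116, 100, 109 and 103 CPM in ATP11A/C KD and 119, 113, 126 and 119 CPM in CDC50A KD, against 167, 170, 157 and 161 CPM in Parental. No KD library reached the lowest Parental library. Esyt1 fell by 0.27 on the log2 scale in ORP5/8 KD (SE 0.049, edgeR adjusted p = 0.000107). The largest fall of any contact-site gene was that of Esyt1 in ATP11A/C KD, to 65.4% of Parental, with a log2 fold change of -0.61 (SE 0.049, edgeR adjusted p = 1.91e-09). In CDC50A KD the log2 fold change was -0.46 (SE 0.049, edgeR adjusted p = 1.45e-07). These calls held under every alternative tried and without any single library.

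Esyt2 encodes the paralog found at plasma membrane contacts already at resting calcium. The gene (ENSMUSG00000021171.8) lies at chr12:116281196-116391050 on the plus strand. Its 4 libraries ran from 79.8 to 86.1 CPM in ORP5/8 KD, 66.7 to 74.5 in ATP11A/C KD and 71.2 to 76.8 in CDC50A KD, against 76.1 to 81.3 CPM in Parental. Only the ATP11A/C KD libraries lay wholly below Parental, and only there was Esyt2 called, at a log2 fold change of -0.14 (SE 0.044, edgeR adjusted p = 0.0178). That call was lost without library 1 of ATP11A/C KD (edgeR adjusted p = 0.0594), without its library 3 (0.052), without Parental 4 (0.0643) and with upper-quartile scaling (0.0549). In CDC50A KD the value of -0.10 had an edgeR adjusted p of 0.055, and it passed when library 1 of ATP11A/C KD (0.0185) or library 1 of CDC50A KD (0.0196) was left out.

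The upstream sequences of 2 genes lower in all KD groups and of 1 called in none against Parental are printed here to show what a proximal promoter of these genes holds. RefSeq (GRCm38.p6) gave a start for 8 of the 10 genes, Gramd1b and Vps13c not being among them. The 250 bases before the start, read 5′ to 3′ on the gene's strand, are printed for Esyt1 (chr10:128525860-128526109, minus strand) and Vapa (chr17:65613556-65613805, minus strand), the 2 lower genes, and for Vps13a (chr19:16780934-16781183, minus strand), which was called between ORP5/8 KD and ATP11A/C KD. Capitals mark the GC box GGGCGG and the CCAAT box CCAAT on either strand.
Esyt1: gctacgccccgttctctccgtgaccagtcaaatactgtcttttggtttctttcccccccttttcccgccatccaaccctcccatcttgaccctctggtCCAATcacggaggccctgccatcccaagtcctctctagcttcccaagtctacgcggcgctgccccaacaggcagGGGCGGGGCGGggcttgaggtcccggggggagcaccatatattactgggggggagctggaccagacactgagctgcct
Vapa: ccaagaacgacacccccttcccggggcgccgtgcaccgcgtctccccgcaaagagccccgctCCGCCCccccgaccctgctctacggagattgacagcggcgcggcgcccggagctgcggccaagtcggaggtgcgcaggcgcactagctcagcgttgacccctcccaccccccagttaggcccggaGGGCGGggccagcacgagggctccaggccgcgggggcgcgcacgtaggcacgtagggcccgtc
Vps13a: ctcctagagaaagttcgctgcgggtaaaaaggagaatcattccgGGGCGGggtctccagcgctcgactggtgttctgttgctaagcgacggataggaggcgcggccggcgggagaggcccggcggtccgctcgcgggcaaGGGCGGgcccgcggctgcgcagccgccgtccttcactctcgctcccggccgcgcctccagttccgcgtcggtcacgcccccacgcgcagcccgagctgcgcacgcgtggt
Esyt1 holds 2 GC boxes, which overlap each other, and 1 CCAAT box, while Vapa and Vps13a hold 2 GC boxes each and no CCAAT box. All 8 matched genes held a GC box, which 32.7% of 32851 mouse promoters of this length hold. A CCAAT box was held by 3 (Esyt1, Gramd1a and Stim2), beside 33.8% of promoters. These promoters include those of genes not expressed here, and the share over expressed genes was not computed. None of the 8 held TATAAA or the E-box CACGTG on either strand, which 12.4% and 6.02% of promoters hold. The GC content of the 8 windows ran from 50.0 to 78.4%, beside a median of 52.4% over all promoters. The 50.0% is that of Gramd1a, whose window (chr7:31151172-31151421, minus strand) lies inside the annotated gene, downstream of its 5′ end at 31155896. Which start of Gramd1a these cells use was not tested. A match to these letters is a description of the window, and genes called in 3, 1 and 0 KD groups all carried the GC box.

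Gramd1a and Gramd1b encode Aster proteins, ER proteins whose GRAM domain binds phosphatidylserine in the plasma membrane and whose ASTER domain carries accessible cholesterol back to the ER. Gramd1b was lower in all KD groups, and Gramd1a in CDC50A KD. Gramd1b (ENSMUSG00000040111.16, chr9:40293233-40531383, minus strand) had 50.6, 47.7, 48.5 and 47.7 CPM in ORP5/8 KD, 59.7, 60.9, 63.6 and 57.5 CPM in ATP11A/C KD and 48.4, 48.7, 50.6 and 55.4 CPM in CDC50A KD, against 65.5, 66.3, 67.1 and 70.2 CPM in Parental. All 12 KD libraries lay below all 4 Parental libraries. Gramd1b fell by 0.47 on the log2 scale in ORP5/8 KD (SE 0.047, edgeR adjusted p = 4.8e-08) and by 0.40 in CDC50A KD (SE 0.048, edgeR adjusted p = 5.65e-07). In ATP11A/C KD the fold change of -0.15 (SE 0.047, edgeR adjusted p = 0.0135) was lost as a call without library 4 of that group (0.0646) or without Parental 4 (0.0547).

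Gramd1a (ENSMUSG00000001248.15, chr7:31130127-31155896, minus strand) was low in CDC50A KD. Its libraries had 45.8, 41.0, 45.4 and 46.3 CPM in ORP5/8 KD, 38.1, 40.2, 43.4 and 37.0 CPM in ATP11A/C KD and 26.9, 27.0, 27.7 and 34.0 CPM in CDC50A KD, against 44.2, 36.5, 42.9 and 43.9 CPM in Parental. The CDC50A KD libraries lay below all the others, and the other KD groups overlapped with Parental. Gramd1a fell to 69.2% of Parental in CDC50A KD, a log2 fold change of -0.53 (SE 0.078, edgeR adjusted p = 9.21e-06). The 95% interval of its log2 fold change was -0.06 to 0.25 in ORP5/8 KD and -0.23 to 0.08 in ATP11A/C KD. Gramd1a in CDC50A KD kept its call under every alternative tried. Genes annotated on the opposite strand of Esyt1, Gramd1a and Gramd1b exons had at most 4 counts in any library.

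Vapa and Vapb encode the VAP receptors, tail-anchored ER proteins that recruit oxysterol-binding, ceramide-transfer and VPS13 proteins through FFAT motifs. Vapa (ENSMUSG00000024091.9, chr17:65578327-65613555, minus strand) had 119, 118, 109 and 118 CPM in ORP5/8 KD, 110, 118, 110 and 118 CPM in ATP11A/C KD and 131, 121, 114 and 114 CPM in CDC50A KD, against 132, 139, 130 and 128 CPM in Parental. The ORP5/8 KD and ATP11A/C KD libraries lay below Parental, while library 1 of CDC50A KD fell within the Parental range. Vapa fell by 0.19 on the log2 scale in ORP5/8 KD (SE 0.049, edgeR adjusted p = 0.00258) and by 0.22 in ATP11A/C KD (SE 0.049, edgeR adjusted p = 0.00135). Its fall of 0.14 in CDC50A KD (SE 0.049, edgeR adjusted p = 0.0186) did not pass without library 3 of CDC50A KD (0.0535), Parental 1 (0.0512) or Parental 2 (0.0952).

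Vapb (ENSMUSG00000054455.5, chr2:173737511-173784336, plus strand) was low in ATP11A/C KD. It had 120, 126, 125 and 124 CPM in ORP5/8 KD, 103, 101, 103 and 97.4 CPM in ATP11A/C KD and 123, 119, 127 and 124 CPM in CDC50A KD, against 116, 127, 123 and 118 CPM in Parental. The ATP11A/C KD libraries lay below the other 12, which overlapped among themselves. Vapb fell to 83.7% of Parental in ATP11A/C KD, a log2 fold change of -0.26 (SE 0.039, edgeR adjusted p = 1.98e-05). The 95% interval of its log2 fold change was -0.05 to 0.11 both in ORP5/8 KD and in CDC50A KD. The ATP11A/C KD call held under every alternative tried and without any single library.

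Stim1 and Stim2 encode the ER calcium sensors of store-operated calcium entry, of which STIM2 answers to smaller losses of ER calcium. Stim1 (ENSMUSG00000030987.5, chr7:102267806-102437319, plus strand) ran from 42.4 to 44.1 CPM in ORP5/8 KD, 41.9 to 51.0 in ATP11A/C KD and 48.2 to 50.7 in CDC50A KD, against 43.1 to 47.4 CPM in Parental. All CDC50A KD libraries were above Parental, but the log2 fold change of 0.12 (SE 0.055) did not pass, with an edgeR adjusted p of 0.0758. It passed in a fit of these 8 libraries alone (0.0292) and without library 2 of ATP11A/C KD (0.039). The 95% interval of the Stim1 log2 fold change was -0.19 to 0.04 in ORP5/8 KD and -0.11 to 0.12 in ATP11A/C KD.

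Stim2 (ENSMUSG00000039156.19, chr5:53998499-54121057, plus strand) had 36.0, 36.0, 33.2 and 36.0 CPM in ORP5/8 KD, against 42.2, 40.6, 37.4 and 37.0 CPM in Parental. It averaged 38.7 ± 1.01 CPM in ATP11A/C KD and 38.0 ± 1.84 CPM in CDC50A KD (SD, n = 4 each), inside the Parental spread of 39.3 ± 2.49 CPM. In ORP5/8 KD the log2 fold change of -0.16 (SE 0.052, edgeR adjusted p = 0.0182) was lost as a call without library 3 of that group (-0.11, edgeR adjusted p = 0.114), without Parental 1 (-0.10, 0.141) and without Parental 2 (-0.13, 0.095). It was also lost with upper-quartile scaling (-0.08, 0.19).

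Vps13a and Vps13c encode lipid bridges, VPS13A between the ER and mitochondria or the plasma membrane and VPS13C between the ER and late endosomes or lysosomes. Vps13c (ENSMUSG00000035284.10, chr9:67840396-67995638, plus strand) had 536, 481, 474 and 467 CPM in ORP5/8 KD, 390, 369, 412 and 404 CPM in ATP11A/C KD and 394, 379, 379 and 338 CPM in CDC50A KD, against 450, 433, 459 and 454 CPM in Parental. Every ORP5/8 KD library was above Parental and every library of the other KD groups below it. Vps13c fell by 0.19 on the log2 scale in ATP11A/C KD (SE 0.052, edgeR adjusted p = 0.00619) and by 0.27 in CDC50A KD (SE 0.052, edgeR adjusted p = 0.000188). In ORP5/8 KD its log2 fold change of 0.12 (SE 0.052) had an edgeR adjusted p of 0.0534. That value moved past the threshold with upper-quartile scaling (0.20, 0.00253), with no filter on low counts (0.13, 0.0476), with a filter of 1 CPM in 4 libraries (0.13, 0.0417), in DESeq2 (0.13, 0.0378) and in a fit of these 8 libraries alone (0.13, 0.0259). It also passed when any 1 of 9 libraries was left out, which were ORP5/8 KD 2, 3 and 4, ATP11A/C KD 1 to 4 and CDC50A KD 1 and 4, at log2 fold changes of 0.13 to 0.15.

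Vps13a (ENSMUSG00000046230.11, chr19:16615366-16780933, minus strand) was called in no KD group against Parental. It ran from 94.3 to 120 CPM in ORP5/8 KD, 79.5 to 98.6 in ATP11A/C KD and 89.7 to 105 in CDC50A KD, against 95.9 to 103 CPM in Parental, and all these ranges overlapped. The 95% intervals of its log2 fold change were -0.08 to 0.22, -0.28 to 0.02 and -0.21 to 0.08. Relative to its mean, Vps13a also had the widest spread of the 10 genes between ORP5/8 KD libraries, a coefficient of variation of 10.7%.

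Set against each other, the KD groups differed most in Gramd1a, Vps13c, Esyt1, Gramd1b and Vapb. Between ORP5/8 KD and ATP11A/C KD 5 genes were higher in ORP5/8 KD and 1 lower, where 38.7% of all genes were called, 18.2% higher and 20.4% lower. The higher ones were Esyt1 (log2 fold change 0.34, edgeR adjusted p = 8.48e-06), Vps13c (0.31, 5e-05), Vapb (0.29, 3.73e-06), Esyt2 (0.20, 0.000833) and Vps13a (0.20, 0.0301). Gramd1b was lower in ORP5/8 KD, at a log2 fold change of -0.31 (edgeR adjusted p = 1.77e-05). All 4 ORP5/8 KD libraries lay above ATP11A/C KD for 4 genes (15.9% of all genes) and below for 2, Gramd1b and Stim2 (17.0%). The Vps13a call was lost without ORP5/8 KD 1 (0.13, edgeR adjusted p = 0.143), ORP5/8 KD 2 (0.20, 0.0582) or ATP11A/C KD 1 (0.14, 0.102), and in a fit of these 8 libraries alone (0.0540). Gramd1a at 0.17 (edgeR adjusted p = 0.0843) passed without ORP5/8 KD 2 (0.0484), ATP11A/C KD 3 (0.0366) or CDC50A KD 4 (0.0328), and Stim2 at -0.13 (0.0506) without Parental 4 (0.0493).

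Between ORP5/8 KD and CDC50A KD 4 genes were higher in ORP5/8 KD and 1 lower, where 56.8% of all genes were called, 27.5% higher and 29.4% lower. Gramd1a was 1.54-fold higher in ORP5/8 KD, a log2 fold change of 0.62 (SE 0.077, edgeR adjusted p = 7.85e-07), which was the largest difference of any contact-site gene between 2 groups. Vps13c followed at 0.40 (edgeR adjusted p = 1.72e-06), then Esyt1 at 0.19 (0.00252) and Esyt2 at 0.17 (0.00242). Stim1 was lower in ORP5/8 KD, at -0.19 (edgeR adjusted p = 0.00529), a call lost with upper-quartile scaling (-0.12, 0.0541). All 4 ORP5/8 KD libraries lay above CDC50A KD for 4 genes (24.5% of all genes) and below for 2, Stim1 and Stim2 (26.5%). Vps13a at 0.13 (edgeR adjusted p = 0.117) passed with that scaling (0.20, 0.0217) and without ORP5/8 KD 3 (0.0372), ATP11A/C KD 1 (0.0477) or CDC50A KD 2 (0.0373).

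Between CDC50A KD and ATP11A/C KD 2 genes were higher in CDC50A KD and 2 lower, where 26.2% of all genes were called, 13.5% higher and 12.7% lower. Vapb was higher in CDC50A KD (log2 fold change 0.29, edgeR adjusted p = 3.21e-05), and Gramd1a (-0.46, 0.000265) and Gramd1b (-0.25, 0.000731) were lower. Esyt1 was higher at 0.15 (edgeR adjusted p = 0.0244), with overlapping libraries. CDC50A KD lay wholly above ATP11A/C KD for 1 gene (11.7% of all genes) and wholly below for 2 (10.5%). The Esyt1 call was lost without ATP11A/C KD 2 (0.0822) or 4 (0.0825), without CDC50A KD 1 (0.0624), 3 (0.111) or 4 (0.0573), and in a fit of these 8 libraries alone (0.0725). Stim1 at 0.12 (edgeR adjusted p = 0.119) passed without ATP11A/C KD 1 (0.16, 0.0194). Vapa was not called in any comparison between KD groups, with 95% intervals of -0.08 to 0.13, -0.15 to 0.05 and -0.03 to 0.18 in the 3 comparisons as ordered here.

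**Figure D3:**
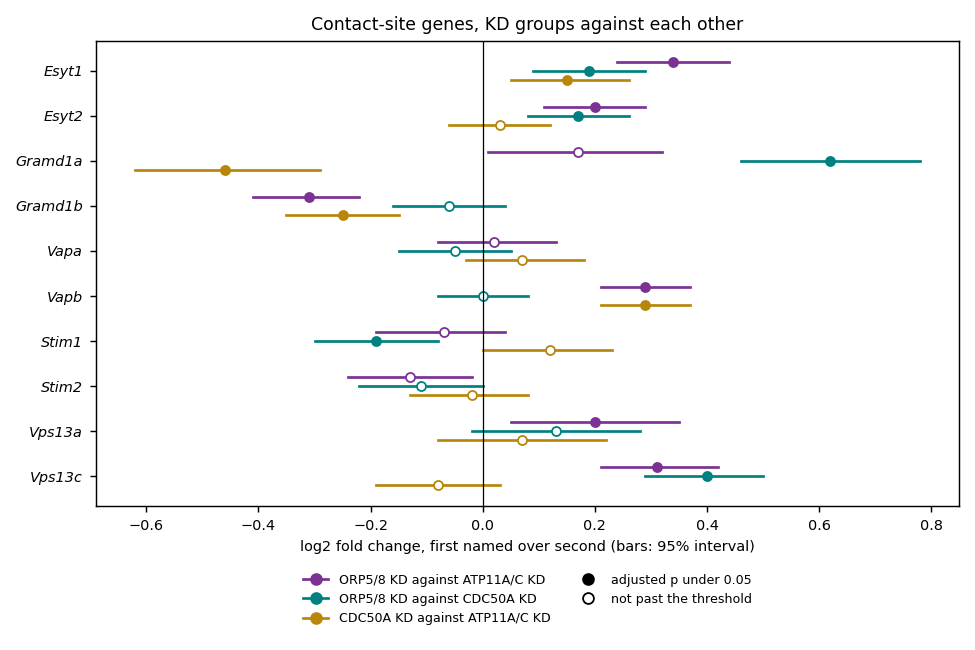
Log2 fold change (horizontal axis) of each contact-site gene between pairs of KD groups, first named over second, with 95% intervals and filled points where the edgeR adjusted p is under 0.05. Gramd1a in ORP5/8 KD over CDC50A KD is farthest from 0, at 0.62, and Vapa has no filled point.

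The balance between paralogs, a ratio within a library that does not depend on scaling, was compared in the same groups. No difference passed correction, which even libraries wholly apart could hardly do with 4 against 4. Esyt1 over Esyt2 averaged 1.65 for ORP5/8 KD, 1.49 for ATP11A/C KD and 1.63 for CDC50A KD, against 2.08 in Parental, with all 12 KD libraries below Parental. Gramd1a over Gramd1b averaged 0.917 for ORP5/8 KD, 0.657 for ATP11A/C KD and 0.568 for CDC50A KD, against 0.622 in Parental, and the ORP5/8 KD libraries lay above all the others. Vapa over Vapb averaged 0.935, 1.13 and 0.97 in the KD groups in that order, against 1.1 in Parental. Its ORP5/8 KD libraries lay below all those of Parental and ATP11A/C KD, while the other KD groups overlapped with Parental. Stim1 over Stim2 stayed between 1.18 and 1.30 in the KD groups, against 1.16 in Parental, with overlapping libraries. Vps13a over Vps13c was 0.257 in CDC50A KD against 0.223 in Parental, with no overlap. Of 30 exact two-sided permutation tests (5 pairs in 6 comparisons), 11 reached p = 0.0286, the smallest that 4 against 4 libraries allow. After Benjamini-Hochberg adjustment over the 30, 0 passed (lowest permutation adjusted p = 0.0779). A ratio could pass only if most of the 30 tests reached the smallest p, so these tests do not show an unchanged balance.

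**Figure D4:**
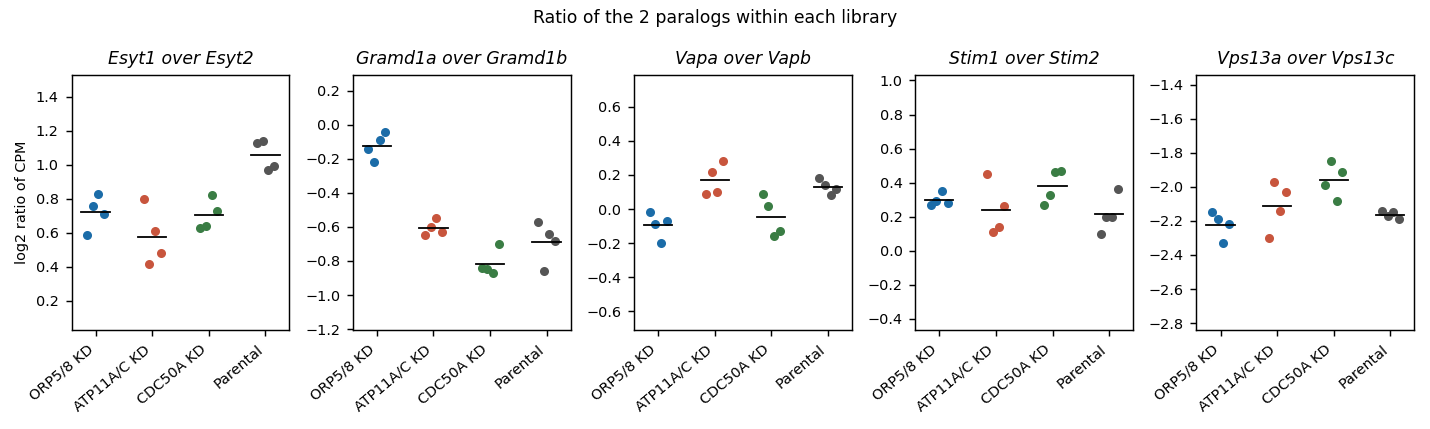
Log2 ratio of CPM (vertical axis) of each pair of paralogs in each library, with group means as lines and the same span of the axis in every panel. Esyt1 over Esyt2 is lower in all KD libraries than in Parental, and Gramd1a over Gramd1b is highest in ORP5/8 KD.

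Other tethers and bridges were called in both directions in ORP5/8 KD and in ATP11A/C KD. Of 20 further genes of this kind 12 were tested. In ORP5/8 KD 4 were higher and 2 lower, in ATP11A/C KD 2 higher and 4 lower, and in CDC50A KD 0 higher and 5 lower, where 22.0%, 17.4% and 24.3% of all genes were higher and 24.3%, 20.2% and 26.1% lower. Their median log2 fold changes were 0.06, -0.02 and -0.12, to be read beside 0.02, 0.01 and -0.01 over all genes. With upper-quartile scaling these counts were 5 and 2, 2 and 3, and 1 and 5, and the ATP11A/C KD median was 0.00. Beside the 0 higher genes in CDC50A KD, 2 were higher at an unadjusted p under 0.05 in edgeR and 0 in DESeq2. Atg2b and Atg2a, which encode lipid bridges that feed the growing autophagosome, rose to 112 ± 1.58 and 54.6 ± 2.57 CPM in ORP5/8 KD, against 78.9 ± 3.94 and 38.1 ± 1.58 CPM in Parental (SD, n = 4 each, edgeR adjusted p = 4.41e-09 and 2.64e-06). Atg2b and Atg2a also rose in ATP11A/C KD, to 88.9 ± 4.17 and 43.2 ± 5.86 CPM (edgeR adjusted p = 0.0038 and 0.0436). Gramd4 rose to 41.9 ± 1.54 CPM in ORP5/8 KD, against 28.8 ± 1.86 CPM in Parental (edgeR adjusted p = 2.5e-05). Mospd2, an ER protein that binds FFAT motifs as VAP does, was lower in all KD groups, at 28.0 ± 1.96 CPM in ORP5/8 KD, 25.1 ± 3.84 CPM in ATP11A/C KD and 18.8 ± 0.948 CPM in CDC50A KD, against 37.4 ± 3.38 CPM in Parental (edgeR adjusted p = 0.000611, 2.85e-05 and 2.01e-08). Vps13b, a paralog of the bridges above, fell by 0.15 on the log2 scale in CDC50A KD (SE 0.042, edgeR adjusted p = 0.0056). Vps13b was also lower in ATP11A/C KD, at a log2 fold change of -0.11 (SE 0.042, edgeR adjusted p = 0.0382). Its relative Vps13d was called in both directions, rising to 84.7 ± 4.03 CPM in ORP5/8 KD and falling to 64.7 ± 3.52 CPM in CDC50A KD, against 73.5 ± 3.24 CPM in Parental (edgeR adjusted p = 0.00333 and 0.00825).

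Genes whose proteins dock on VAP through an FFAT motif were called lower more often than higher in ATP11A/C KD and CDC50A KD. Of 16 tested genes of 19 listed, 4 were higher and 6 lower in ORP5/8 KD, 3 and 10 in ATP11A/C KD, and 2 and 10 in CDC50A KD, with median log2 fold changes of -0.09, -0.21 and -0.16. Over all genes 22.0% were higher and 24.3% lower in ORP5/8 KD, 17.4% and 20.2% in ATP11A/C KD, and 24.3% and 26.1% in CDC50A KD. With upper-quartile scaling the ORP5/8 KD counts were 6 and 6. Stard3, a cholesterol carrier of late endosomes, was lower in all KD groups, at 66.8 ± 1.53 CPM in ORP5/8 KD, 73.1 ± 1.12 CPM in ATP11A/C KD and 73.7 ± 4.08 CPM in CDC50A KD, against 97.2 ± 2.04 CPM in Parental (edgeR adjusted p = 4.8e-10, 5.61e-08 and 8.55e-08). Acbd5, which tethers peroxisomes to the ER, fell to 37.4 ± 2.03 CPM in ATP11A/C KD and 37.7 ± 1.17 CPM in CDC50A KD, against 51.9 ± 0.873 CPM in Parental (edgeR adjusted p = 1.33e-07 and 1.9e-07). In ORP5/8 KD Acbd5 was lower too, at 44.2 ± 2.77 CPM (edgeR adjusted p = 0.000602). Rmdn3, the mitochondrial partner of VAPB also called PTPIP51, fell by 0.36 on the log2 scale in ORP5/8 KD (SE 0.054, edgeR adjusted p = 1.07e-05). Rmdn3 was also lower in ATP11A/C KD, at a log2 fold change of -0.15 (SE 0.054, edgeR adjusted p = 0.0316). Pitpnm2, a phosphatidylinositol transfer protein of ER and plasma membrane contacts, rose to 29.4 ± 2.86 CPM in ATP11A/C KD and 25.7 ± 1.21 CPM in CDC50A KD, against 17.3 ± 1.42 CPM in Parental (edgeR adjusted p = 4.26e-08 and 2.69e-06). Pitpnm2 was also higher in ORP5/8 KD, at 19.9 ± 1.29 CPM (edgeR adjusted p = 0.0394).

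Genes of store-operated calcium entry moved both ways. Of 18 tested genes of 21 listed, 5 were higher and 7 lower in ORP5/8 KD, 5 and 7 in ATP11A/C KD, and 8 and 7 in CDC50A KD, with median log2 fold changes of -0.11, -0.00 and 0.06. In either direction 46.2%, 37.6% and 50.4% of all genes were called in these comparisons. With upper-quartile scaling the ATP11A/C KD counts were 7 and 7 and its median was 0.02. Itpr1, an inositol trisphosphate receptor that releases ER calcium, was lower in all KD groups, at 55.0 ± 3.36 CPM in ORP5/8 KD, 60.6 ± 2.44 CPM in ATP11A/C KD and 68.3 ± 1.68 CPM in CDC50A KD, against 86.1 ± 1.22 CPM in Parental (edgeR adjusted p = 8e-11, 6.98e-09 and 2.56e-06). Its relative Itpr2 fell to 47.0 ± 3.23 CPM in ATP11A/C KD and 48.6 ± 2.08 CPM in CDC50A KD, against 68.7 ± 1.28 CPM in Parental (edgeR adjusted p = 2.36e-08 and 8.67e-08). Itpr2 was also lower in ORP5/8 KD, at 59.9 ± 3.37 CPM (edgeR adjusted p = 0.00305). Orai3, a plasma membrane channel of the Orai family, rose to 58.6 ± 2.46 CPM in ORP5/8 KD, against 46.2 ± 1.02 CPM in Parental (edgeR adjusted p = 4.07e-06). Atp2a2, the ER calcium pump SERCA2, was called in both directions, at 666 ± 16.3 CPM in ORP5/8 KD, 849 ± 36.9 CPM in ATP11A/C KD and 934 ± 16.5 CPM in CDC50A KD, against 771 ± 10.2 CPM in Parental (edgeR adjusted p = 8.54e-05, 0.00519 and 3.08e-06).

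Genes of sterol handling, the cargo of the GRAMD1 proteins, were more often lower than higher. Of 20 tested genes 1 was higher and 11 lower in ORP5/8 KD, 1 and 13 in ATP11A/C KD, and 1 and 14 in CDC50A KD, with median log2 fold changes of -0.19, -0.22 and -0.20. The shares over all genes were 22.0% higher and 24.3% lower in ORP5/8 KD, 17.4% and 20.2% in ATP11A/C KD, and 24.3% and 26.1% in CDC50A KD. With upper-quartile scaling the ORP5/8 KD counts were 4 and 9. Npc2, which hands cholesterol out of the lysosome, was lower in all KD groups, at 277 ± 8.69 CPM in ORP5/8 KD, 237 ± 6.10 CPM in ATP11A/C KD and 248 ± 6.71 CPM in CDC50A KD, against 361 ± 14.2 CPM in Parental (edgeR adjusted p = 5.59e-08, 6.96e-11 and 4.33e-10). Abca1, the cholesterol exporter, was the 1 gene of the list higher in ORP5/8 KD, at 29.5 ± 2.61 CPM, and it fell to 12.8 ± 1.13 CPM in ATP11A/C KD and 14.8 ± 0.836 CPM in CDC50A KD, against 25.3 ± 0.647 CPM in Parental (edgeR adjusted p = 0.0142, 5.49e-10 and 2.03e-08). Soat1, which esterifies cholesterol in the ER, fell to 210 ± 16.8 CPM in ATP11A/C KD, against 307 ± 6.18 CPM in Parental (edgeR adjusted p = 1e-07). Soat1 was also lower in ORP5/8 KD, at 264 ± 15.1 CPM, and in CDC50A KD, at 226 ± 15.1 CPM (edgeR adjusted p = 0.00302 and 1.59e-06).

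Genes that supply or break down phosphoinositides, lipids that extended synaptotagmins bind at the plasma membrane, were also more often lower than higher. The list holds Plcg1, Plcg2, Plcb3 and Sacm1l, which break these lipids down, and the counts do not separate supply from breakdown. Of 22 tested genes 3 were higher and 10 lower in ORP5/8 KD, 0 and 13 in ATP11A/C KD, and 2 and 14 in CDC50A KD, with median log2 fold changes of -0.09, -0.15 and -0.18. Beside them, 24.3%, 20.2% and 26.1% of all genes were lower in these groups and 22.0%, 17.4% and 24.3% higher. The 0 higher genes in ATP11A/C KD were also 0 at an unadjusted p under 0.05 in edgeR and 0 in DESeq2. Efr3b, which anchors a phosphatidylinositol kinase complex at the plasma membrane, was lowest relative to Parental, at 6.36 ± 0.725 CPM in ORP5/8 KD, 5.42 ± 0.405 CPM in ATP11A/C KD and 4.89 ± 0.315 CPM in CDC50A KD, against 17.2 ± 0.754 CPM in Parental (edgeR adjusted p = 7.75e-12, 1.97e-12 and 7.57e-13). Pip5k1b, a kinase that makes phosphatidylinositol bisphosphate, was lower in all KD groups, at 21.9 ± 0.746 CPM in ORP5/8 KD, 25.6 ± 1.46 CPM in ATP11A/C KD and 24.9 ± 3.25 CPM in CDC50A KD, against 36.9 ± 1.33 CPM in Parental (edgeR adjusted p = 1.46e-08, 3.81e-06 and 1.41e-06). Cds1, which makes CDP-diacylglycerol for phosphatidylinositol synthesis, fell to 9.99 ± 0.268 CPM in ATP11A/C KD and 8.90 ± 1.05 CPM in CDC50A KD, against 16.3 ± 0.801 CPM in Parental (edgeR adjusted p = 9.94e-08 and 4.24e-09).

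**Figure D5:**
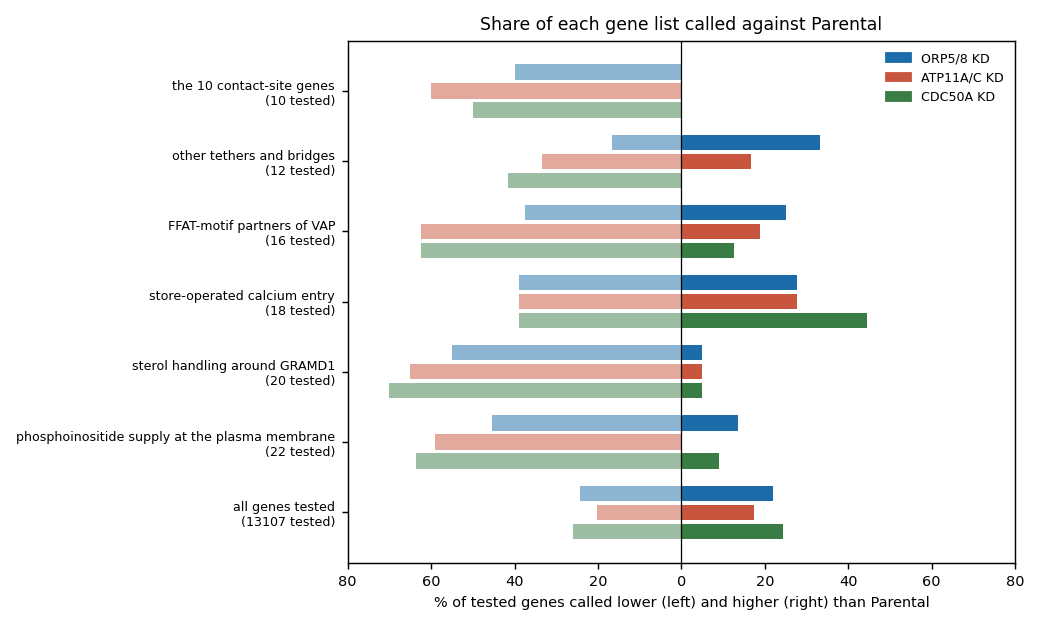
Share of tested genes (horizontal axis, %) called lower (left of 0, pale) and higher (right, dark) than Parental in each KD group, for the contact-site genes, 5 lists of partner genes and all genes tested. With the fit shown, the contact-site genes have bars on the lower side only, while some alternatives gave 1 to 3 higher in ORP5/8 KD and 1 in CDC50A KD. The sterol and phosphoinositide lists have longer lower bars than higher ones.

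For Esyt1, Gramd1a and Gramd1b, the members with the largest changes from Parental, the genes most alike in level were found by Pearson correlation of log2 CPM over the 16 libraries, which share their groups. Esyt1 was most like Cndp2 (r = 0.977), Inppl1 (0.974) and Lgals3 (0.972), and Lgals3 averaged 775, 545 and 612 CPM in ORP5/8, ATP11A/C and CDC50A KD, against 906 CPM in Parental. Gramd1a was most like AC149090.1 (r = 0.982), Rrnad1 (0.977) and Wdr13 (0.976), and Wdr13 averaged 42.5, 34.3 and 24.5 CPM in these groups, against 38.5 CPM in Parental. Gramd1b was most like Sh3bp2 (r = 0.972), Cd72 (0.964) and Fnbp1l (0.958), and Cd72 averaged 221, 259 and 235 CPM, against 290 CPM in Parental.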

How the data were processed

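The 16 RNA libraries of RAW264.7 cells were placed by their genotype labels in 4 groups of 4. Per the labels' protocols, libraries were made with a stranded mRNA kit. Per the submitters' processing notes, Trim Galore 0.5.0, STAR 2.7.5a, Picard and RSEM were used with mm10, and the annotation release is not given in the sources used here. The expected counts deposited by the authors are RSEM values per gene, and they were rounded to whole numbers here. The table also holds 92 spike-in records whose counts sum to 0.

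Genes that passed filterByExpr at 10 counts (13107 genes, 99.97% of counts) were scaled by TMM. All 16 libraries were fitted in one quasi-likelihood model with a term per group (edgeR 4.0.16, R 4.3.3), with Benjamini-Hochberg adjustment over all tested genes in each comparison and a call at an adjusted p under 0.05. The biological coefficient of variation was 6.86%. Standard errors came from the estimate and its F statistic, and 95% intervals from the t distribution. Levels are CPM after TMM scaling. Paralog ratios used log2(CPM + 0.1) and exact permutation tests in SciPy 1.17.1. Exon lengths and coordinates are from GENCODE M21 (GRCm38), and promoter sequences from RefSeq (GRCm38.p6). The scripts were tested on simulated counts.

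The 10 genes and the 5 partner lists were chosen with earlier results of these data known. All 10 genes are named in every comparison. The text also names the knockdown targets, with 1 target left out, some of the up to 4 called genes per partner list and comparison with the smallest adjusted p, and the 3 genes most like each of the 3 members that moved most. A gene taken by this rule in 1 comparison may be given in the others too. Some genes taken by this rule are not reported here. The alternatives changed the scaling (DESeq2 size factors, upper quartile), the filter (none, or 1 CPM in 4 libraries), the test (Wald test of DESeq2 1.42.0), the model (replicate block, or only the 8 compared libraries), the libraries (each left out in turn) and, for the ratios, the pseudocount (0 and 1 CPM).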

Additional observations from a re-analysis of the deposited data

Results flagged for a closer look

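In 4 of 40 sets of 4 replicate libraries, 1 library stood apart from the other 3 by the 95% limit of Dixon's test, which chance exceeds in about 1 set of 20. Gramd1a had 41.0 CPM in library 2 of ORP5/8 KD, below the other 3 (gap over range 0.836), and 34.0 CPM in library 4 of CDC50A KD, above the other 3 (0.888). In library 3 of ORP5/8 KD Vapa had 109 CPM (0.867) and Stim2 33.2 CPM (0.993), both below the other 3.

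Vps13c had every ORP5/8 KD library above Parental and every ATP11A/C KD and CDC50A KD library below it, but in ORP5/8 KD its log2 fold change of 0.12 over Parental did not pass (edgeR adjusted p = 0.0534). The direct comparisons gave a log2 fold change of 0.31 for ORP5/8 KD over ATP11A/C KD (edgeR adjusted p = 5e-05) and of 0.40 for ORP5/8 KD over CDC50A KD (edgeR adjusted p = 1.72e-06).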

How the results depend on the processing

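Counts of called contact-site genes and of called genes over the genome stayed within 1.5 times in all 6 comparisons under every alternative. Without single libraries, the contact-site genes called numbered 3 to 5 in ORP5/8 KD, 4 to 6 in ATP11A/C KD and 4 to 6 in CDC50A KD against Parental. Direction changed only for values that were not called. With upper-quartile scaling the log2 fold change was 0.00 for Stim1 in ORP5/8 KD and for Stim2 in ATP11A/C KD against Parental, and 0.00 for Gramd1b and 0.02 for Vapa in ORP5/8 KD against CDC50A KD. Stim1 in ATP11A/C KD was -0.01 with the 1 CPM filter, and Vapb in ORP5/8 KD against CDC50A KD was -0.00 with no filter. Without single libraries, Stim1 ran from -0.06 to 0.05 and Stim2 from -0.05 to 0.02 in ATP11A/C KD against Parental, Vapa from -0.06 to 0.01 in ORP5/8 KD against CDC50A KD, and Esyt2 from -0.01 to 0.05 and Vps13a from -0.00 to 0.10 in CDC50A KD against ATP11A/C KD. The cause was not tested. Esyt2 in CDC50A KD passed with DESeq2 size factors (edgeR adjusted p = 0.0475), the 1 CPM filter (0.0237), DESeq2 (0.0437) and the 8 libraries alone (0.0342). Gramd1a in ORP5/8 KD against ATP11A/C KD passed with upper-quartile scaling (0.0284), no filter (0.0479) and the 8 libraries alone (0.0458), and Stim2 in DESeq2 (0.0496).

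Deviations from group means correlated weakly between same-numbered libraries, at -0.128 to 0.107. This does not settle whether replicate numbers pair the libraries. With the replicate block 4, 6 and 5 contact-site genes were called in ORP5/8, ATP11A/C and CDC50A KD against Parental, and 7, 5 and 4 in the comparisons between KD groups, where Stim2 was added in ORP5/8 KD against ATP11A/C KD (-0.13, edgeR adjusted p = 0.0462). Genes of the partner lists were not refitted without single libraries. No call by which a gene was taken for naming was lost under DESeq2 size factors or upper-quartile scaling. Other calls of these genes under these scalings are not reported here. Standard errors of 0.039 to 0.078 on the log2 scale, with 4 libraries a group, limit what can be told apart, and the smallest change called against Parental was -0.14.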
